A study of Mus musculus with 8 samples.

Results

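A set of 10 genes that control vascular tone, from the endothelin, angiotensin, nitric oxide and prostanoid pathways, were followed in the whole pregnant uterus after diphtheria toxin was given to deplete regulatory T cells. They were chosen as the Ensembl genes with these symbols: Edn1, Ednra, Ednrb, Ren1, Ace, Agtr1a, Nos3, Nos2, Ptgs1 and Ptgis. All 10 were found among the 49585 genes of the count table, and all 10 passed the filter on low counts. The DT-labelled group comprised 4 uteri from 8-week-old Foxp3DTR females given 1 µg of diphtheria toxin (DT) intraperitoneally 4 times, on embryonic days 1, 3, 5 and 7 (E1 to E7). The PBS-labelled group comprised 4 uteri from Foxp3DTR females of the same age given PBS on those days. Every female had been mated with a BALB/c male, so the conceptus was allogeneic, and every uterus was collected at E8 with the fetal tissue inside. The labels state that the depletion was partial. Both groups carried the toxin receptor at the Foxp3 locus, and toxin-treated females without it were not analysed here, so an effect of the toxin itself cannot be told apart from an effect of the depletion. The question was whether these vasoactive genes differ in the uterus when regulatory T cells are depleted during early pregnancy.

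These pathways act on the smooth muscle of vessels and of the myometrium. Endothelin-1, the peptide encoded by Edn1, constricts vessels through the ETA receptor on smooth muscle (Ednra), while the ETB receptor (Ednrb) on endothelium releases dilators and clears the peptide. Renin (Ren1) and angiotensin-converting enzyme (Ace) produce angiotensin II, which constricts vessels through the type 1 receptor (Agtr1a). Nitric oxide from the endothelial synthase (Nos3) or the inducible synthase (Nos2) relaxes smooth muscle, and cyclooxygenase-1 (Ptgs1) feeds prostacyclin synthase (Ptgis), whose product also dilates, and thromboxane synthase (Tbxas1), whose product constricts and activates platelets. In early pregnancy the decidua builds a new vascular bed, and these systems are known for their part in uterine blood flow.

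Levels are given as CPM, counts scaled to the library size by the TMM method, listed in the order of DT-labelled replicates 1, 3, 4 and 5 and of PBS-labelled replicates 1, 2, 4 and 6. Library totals ranged from 94794512 to 109847604 counts. Foxp3 itself measured 5.1 to 5.72 CPM in libraries labelled DT and 4.36 to 5.44 CPM in libraries labelled PBS, so it gave no check of the labels. All 10 genes of a T cell list were above the PBS-labelled range in every library labelled DT, beside 3.33% of all genes. Of these 10, 4 were called higher at an adjusted p under 0.05 in edgeR, beside 0.322% of all genes. Some libraries stood apart within their group, and PBS-labelled replicates 1 and 2, which share an S number in their titles, did so most. These 2 libraries had summed CPM of 186 and 502 for 10 trophoblast genes, against 11.9 to 45 in libraries labelled DT and 8.85 and 21.4 in PBS-labelled replicates 4 and 6. They were the highest of the 8 for 19.9% of all genes tested and the lowest for 19.5%. Of the 10 vasoactive genes they were the highest for Ren1, Ace, Nos3 and Ptgs1 and the lowest for Ednra and Agtr1a. DT-labelled replicate 1 had the lowest summed level of 10 decidual stroma genes, 2920 CPM, against 7000 to 9090 in the other libraries labelled DT and 6210 to 12000 in libraries labelled PBS.

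None of the 10 genes passed the test between the groups. By the edgeR quasi-likelihood test with Benjamini-Hochberg adjustment over 22693 genes, 0 of the 10 were called higher and 0 lower at an adjusted p under 0.05, beside 0.322% of all genes called higher and 0.00441% called lower. DESeq2 and limma voom also called 0 of the 10. At an unadjusted p under 0.05 the edgeR test gave 1 of the 10 higher, Ednra, and 2 lower, Ren1 and Ace, beside 4.72% and 3.98% of all genes. In 0 of the 10 did the 4 libraries labelled DT lie wholly above or wholly below the 4 libraries labelled PBS, beside 3.33% and 1.73% of all genes. The median log2 fold change of the 10 was -0.18, beside 0.01 for all genes. It was -0.03 without PBS-labelled replicates 1 and 2, where 0 of the 10 had an unadjusted p under 0.05, and -0.05 with scaling by library size only, where that of all genes was 0.12. The ratio of Ednra to Ednrb was higher in every library labelled DT than in any PBS-labelled library. The ratio of Ptgis to Tbxas1 was lower in every library labelled DT, and Tbxas1 alone also separated the groups. Neither ratio passed after adjustment over the 6 ratios compared, of which 5 are given here. Each had the smallest p that 4 against 4 libraries can give, 0.0286 by the exact permutation test. With only 2 of the 6 ratios at that floor the adjusted p could not fall below 0.0857, whatever the size of the difference. In whole tissue, fewer cells of a type and less RNA per cell cannot be told apart.

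The promoters of 4 genes on which the comparisons below turn are shown here, each with 250 bases before and 50 bases after the RefSeq start site on build GRCm38.p6. Ednra and Ednrb are the receptor pair whose ratio did not overlap between the groups, Ren1 had the widest range of the 10 genes, and Tbxas1 was the gene of the wider pathways that passed the test. Of the 10 genes and Tbxas1, 7 had an entry in the promoter table, and Agtr1a, Nos3, Nos2 and Ptgis did not. Capitals mark matches on either strand to any of 8 short motifs. The TATA box was searched as TATAAA, the GC box as GGGCGG and the GATA motif as AGATAA. The ETS core of the PU.1 type was searched as GAGGAA and the AP-1 motif as TGANTCA. The hypoxia response core was searched as ACGTG and the GAS motif as TTCNNNGAA, and the ISRE was the other motif.
Tbxas1 (chr6:38918736-38919035, plus strand): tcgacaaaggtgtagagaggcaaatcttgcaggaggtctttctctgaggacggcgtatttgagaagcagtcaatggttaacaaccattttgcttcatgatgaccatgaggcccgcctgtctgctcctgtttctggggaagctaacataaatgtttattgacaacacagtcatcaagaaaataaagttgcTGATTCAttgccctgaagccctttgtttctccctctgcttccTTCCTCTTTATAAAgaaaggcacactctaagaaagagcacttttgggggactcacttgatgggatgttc
Ren1 (chr1:133350424-133350723, plus strand): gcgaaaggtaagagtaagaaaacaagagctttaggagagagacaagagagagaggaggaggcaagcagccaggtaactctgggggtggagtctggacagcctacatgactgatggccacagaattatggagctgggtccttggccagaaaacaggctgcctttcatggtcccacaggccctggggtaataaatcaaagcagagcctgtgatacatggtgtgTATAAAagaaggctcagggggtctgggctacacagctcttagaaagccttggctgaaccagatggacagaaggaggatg
Ednra (chr8:77724403-77724702, minus strand): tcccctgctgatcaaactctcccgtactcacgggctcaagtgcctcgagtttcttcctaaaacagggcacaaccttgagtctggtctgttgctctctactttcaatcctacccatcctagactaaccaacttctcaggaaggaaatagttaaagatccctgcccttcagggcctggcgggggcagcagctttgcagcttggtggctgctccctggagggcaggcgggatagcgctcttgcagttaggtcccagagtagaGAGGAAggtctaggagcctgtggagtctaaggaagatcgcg
Ednrb (chr14:103843652-103843951, minus strand): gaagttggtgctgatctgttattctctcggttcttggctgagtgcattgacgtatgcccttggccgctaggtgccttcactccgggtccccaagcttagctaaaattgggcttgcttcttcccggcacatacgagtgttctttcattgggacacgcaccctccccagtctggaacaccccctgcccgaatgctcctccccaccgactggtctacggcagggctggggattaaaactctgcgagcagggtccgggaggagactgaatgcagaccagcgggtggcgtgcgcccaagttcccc
The Tbxas1 window held an AP-1 match at -61 to -55 from the start site, where the motif reads alike on both strands, an ETS core of the PU.1 type at -19 to -14, and overlapping TATA matches on both strands between -13 and -6. Among all 32851 promoter windows of this length, 7.81% held the AP-1 motif, 28.3% the ETS core and 13.6% the TATA motif. The Ren1 window held 1 match, a TATA box at -29 to -24. Ednra had 1 match, an ETS core at 10 to 15 after the start, and Ednrb had none of the 8 motifs. The interferon motifs GAS and ISRE, found in 8.3% and 3.44% of all windows, were absent from these 4 windows. The Edn1 window, which is not shown, held an ISRE match at -78 to -69, and Nos2 had no window to search. A match is only a match of letters, and its absence covers only these windows.

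**Figure D1:**
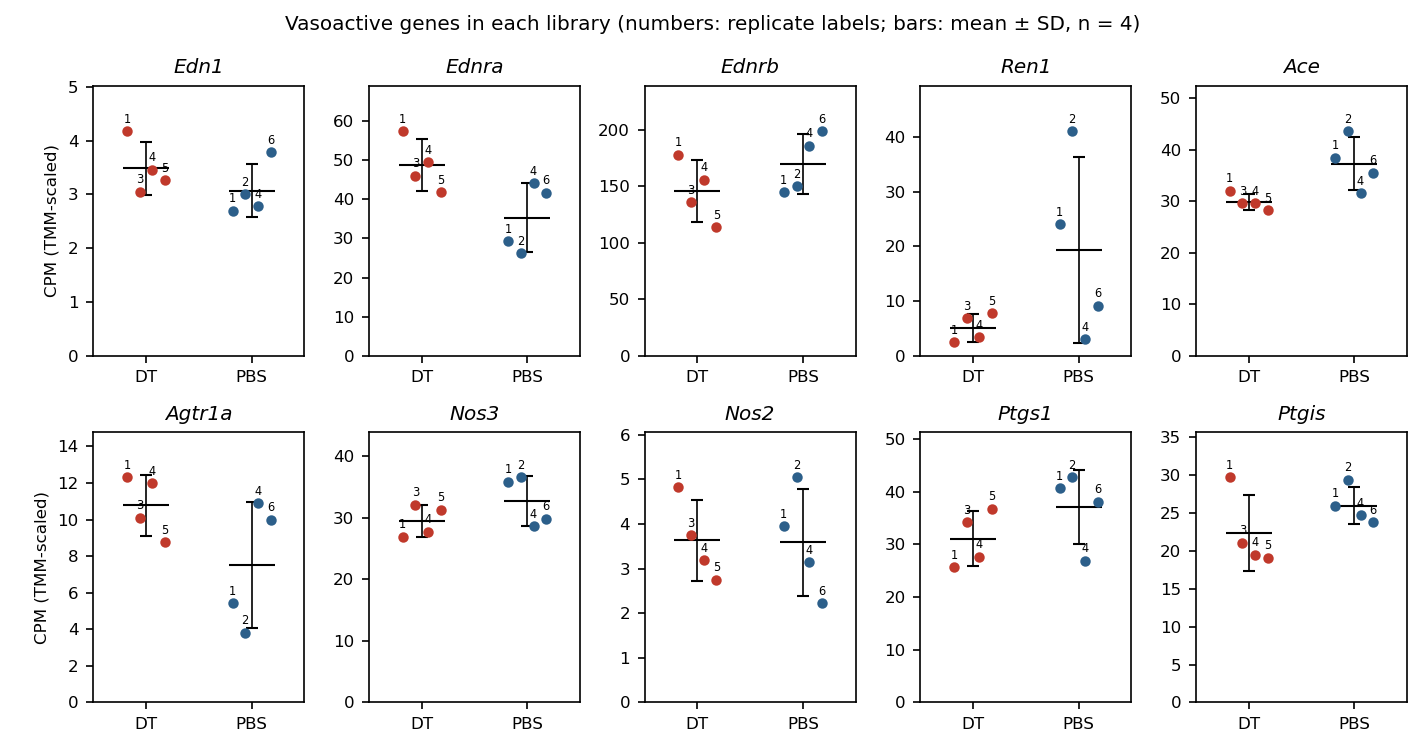
CPM of the 10 vasoactive genes in each library, DT-labelled on the left and PBS-labelled on the right of each panel, with the replicate label above each point and the mean ± SD of 4 libraries as bars. Every panel shows overlapping groups, and PBS-labelled replicates 1 and 2 lie farthest from the rest for Ren1 (24.1 and 41.1 CPM) and Agtr1a (5.43 and 3.82 CPM).

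The endothelin receptors had log2 fold changes of opposite sign, neither past the test, and the ligand was low. Ednra, the constrictor receptor ETA, measured 57.4, 46, 49.5 and 41.8 CPM in libraries labelled DT and 29.2, 26.3, 44 and 41.7 CPM in libraries labelled PBS. The lowest DT-labelled value lay just above PBS-labelled replicate 6 and below replicate 4, and the 2 low values were PBS-labelled replicates 1 and 2. Its mean was 48.7 ± 6.61 CPM in libraries labelled DT and 35.3 ± 8.83 CPM in libraries labelled PBS (± SD, n = 4 per group), a log2 fold change of 0.46 ± 0.18 SE (adjusted p = 0.558, edgeR) with a 95% confidence interval of 0.05 to 0.88. Without PBS-labelled replicates 1 and 2 its log2 fold change was 0.18. Ednra (ENSMUSG00000031616) lies on the minus strand of chromosome 8 at 77663031 to 77724464, and 1.66% of its exon bases overlap those of another gene.

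Ednrb, the ETB receptor, was the most abundant of the 10 genes per kilobase of exon. It measured 178, 136, 156 and 114 CPM in libraries labelled DT and 145, 150, 186 and 199 CPM in libraries labelled PBS. The groups overlapped, and the 2 highest values came from PBS-labelled replicates 4 and 6. The log2 fold change was -0.22 ± 0.16 SE (adjusted p = 0.608, edgeR), with a 95% confidence interval of -0.59 to 0.15. For Ednrb the log2 fold change was -0.40 without PBS-labelled replicates 1 and 2, -0.51 without these and DT-labelled replicate 1, and -0.40 with a score of conceptus genes as a covariate (adjusted p of 0.425 to 1 in these 3 edgeR fits), and leaving out 1 library gave -0.33 to -0.12. Ednrb (ENSMUSG00000022122) lies on the minus strand of chromosome 14 at 103814625 to 103844402, and no annotated exon of another gene overlaps its own.

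Edn1, which encodes the precursor of endothelin-1, measured 4.18, 3.05, 3.46 and 3.26 CPM in libraries labelled DT and 2.7, 3.01, 2.78 and 3.79 CPM in libraries labelled PBS. The highest value was that of DT-labelled replicate 1 and the groups overlapped. Its log2 fold change was 0.18 ± 0.15 SE (adjusted p = 0.633, edgeR), with a 95% confidence interval of -0.17 to 0.53, and 0.084 without PBS-labelled replicates 1 and 2. Ece1, the endothelin-converting enzyme that releases the active peptide, stood at 41.2 CPM per kilobase of exon over the 8 libraries, where Edn1 stood at 1.53. Ece1 had 198 ± 25.8 CPM in libraries labelled DT and 239 ± 34.5 CPM in libraries labelled PBS (± SD, n = 4 per group) and a log2 fold change of -0.27 ± 0.13 SE (adjusted p = 0.571, edgeR). The ratio of Edn1 to Ece1 differed by 0.45 on the log2 scale, with overlap (two-sided exact permutation p = 0.143; adjusted p = 0.286, n = 4 each).

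The ratio of Ednra to Ednrb, taken on counts per kilobase of exon, was 0.252, 0.264, 0.248 and 0.286 in libraries labelled DT and 0.157, 0.137, 0.185 and 0.163 in libraries labelled PBS. The groups did not overlap, and ETB transcripts outnumbered ETA transcripts in all 8 libraries. On the log2 scale the ratio averaged -1.93 ± 0.09 in libraries labelled DT and -2.65 ± 0.18 in libraries labelled PBS (± SD, n = 4 per group), a difference of 0.71, or 1.64-fold. The two-sided exact permutation p was 0.0286, the smallest that 4 against 4 libraries can give, and 0.0857 after adjustment over the 6 ratios. Leaving out each library in turn gave differences of 0.64 to 0.78, and leaving out PBS-labelled replicates 1 and 2 gave 0.59. A ratio shows unequal change between the genes and does not say which of them changed. Of the cell types that carry these receptors, 10 smooth muscle genes summed to 4160 to 5260 CPM in libraries labelled DT and 4060 to 5290 CPM in libraries labelled PBS. The largest part of that sum was Des, at 1800 to 2670 CPM with the DT label and 2330 to 2850 CPM with the PBS label. Single genes of the list varied more than the sum. Myh11, named for its values, measured 1100, 528, 569 and 374 CPM with the DT label and 384, 341, 849 and 713 CPM with the PBS label. For 7 pericyte genes the sums were 458 to 602 CPM with the DT label and 350 to 608 CPM with the PBS label, and for 14 endothelial genes they were 1200 to 1620 CPM with the DT label and 1220 to 2230 CPM with the PBS label. The summed levels of all 3 lists overlapped between the groups. Gene by gene, 7 of 7 pericyte genes had a positive log2 fold change (median 0.18) and 9 of 14 endothelial genes a negative one (median -0.18), with 0 called. In 1 of the 7 pericyte genes, Higd1b, named for its values, every library labelled DT lay above the PBS-labelled range. Over all genes that share was 3.33%, and the groups overlapped in the rest of the pericyte genes. The part of these cell types in the ratio was not tested.

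**Figure D2:**
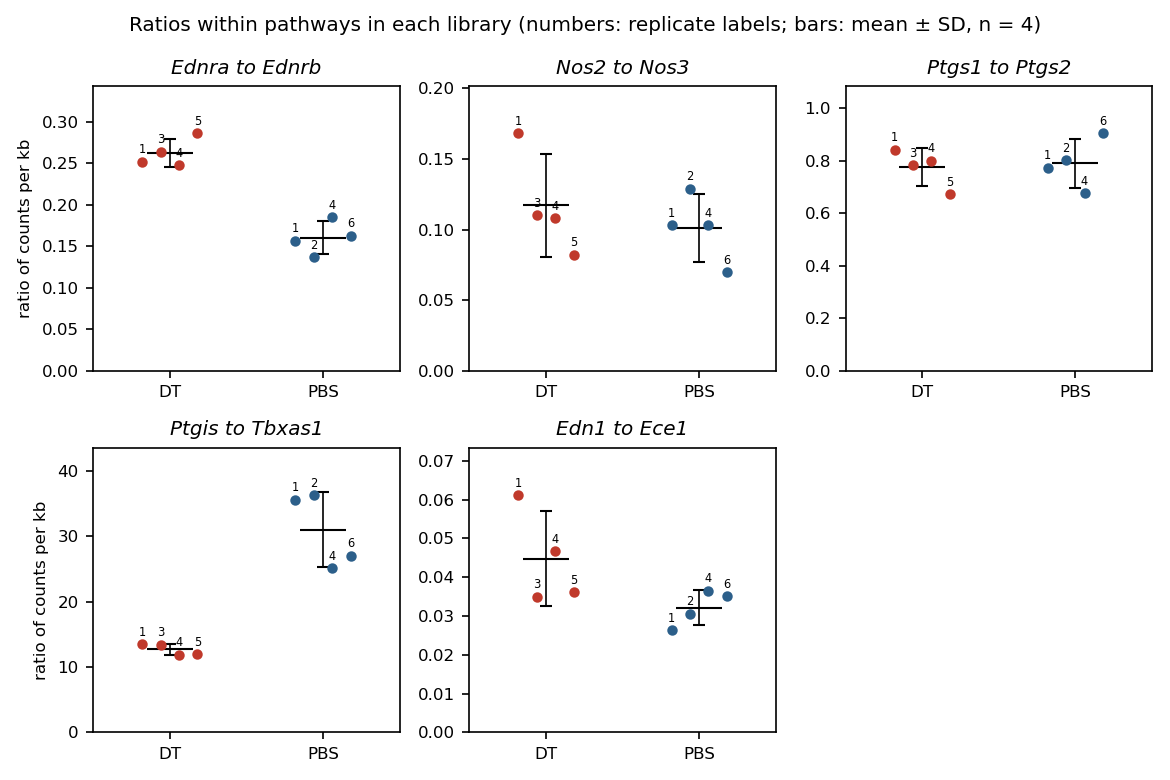
Ratios of counts per kilobase for 5 gene pairs in each library, DT-labelled on the left and PBS-labelled on the right, with replicate labels and the mean ± SD of 4 libraries. The groups separate for Ednra to Ednrb (0.248 to 0.286 in DT, 0.137 to 0.185 in PBS) and for Ptgis to Tbxas1 (11.9 to 13.5 in DT, 25.1 to 36.3 in PBS) and overlap for the other 3 pairs.

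In the angiotensin pathway the widest spread was that of renin. Ren1 measured 2.47, 6.87, 3.4 and 7.81 CPM in libraries labelled DT and 24.1, 41.1, 3.03 and 9.18 CPM in libraries labelled PBS. PBS-labelled replicates 1 and 2 were high, PBS-labelled replicate 4 lay below 3 of the 4 libraries labelled DT, and the whole range was 16.6-fold. The mean was 5.14 ± 2.6 CPM in libraries labelled DT and 19.3 ± 17 CPM in libraries labelled PBS (± SD, n = 4 per group), a log2 fold change of -1.91 ± 0.75 SE (adjusted p = 0.558, edgeR). Without PBS-labelled replicates 1 and 2 the log2 fold change was -0.26, without these and DT-labelled replicate 1 it was -0.02, and with a conceptus score as a covariate it was -0.26. That score summarised trophoblast, yolk sac and embryonic red cell genes, and beyond this fit the part of conceptus tissue in the Ren1 values was not tested. Summed over 9 uterine natural killer genes, the level was 227, 456, 340 and 536 CPM in libraries labelled DT. In libraries labelled PBS that sum was 1110, 1340, 330 and 543 CPM. It ranked the 8 libraries as Ren1 did, as did the endothelium and decidual stroma sums, while the trophoblast sum did not. The part of these cell types in the Ren1 values was not tested. Ren1 (ENSMUSG00000070645) lies on the plus strand of chromosome 1 at 133350510 to 133360325, and none of its 75-base windows occurs in another annotated gene.

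The genes whose levels followed Ren1 most closely were Baiap2l1, which encodes a membrane-curving adaptor, and Pecam1, an endothelial adhesion molecule. Over the 8 libraries the Pearson r of log2 CPM with Ren1 was 0.999 for Baiap2l1 and 0.998 for Pecam1, and over the 6 libraries without PBS-labelled replicates 1 and 2 it was 0.995 and 0.996. These values describe likeness among 13713 genes searched and share the libraries and their composition, so no p is given. Pecam1 measured 167, 246, 195 and 254 CPM in libraries labelled DT and 369, 458, 177 and 271 CPM in libraries labelled PBS, so the same libraries were high as for Ren1, within a narrower range. For the other genes searched in this way, the closest were Pde4b (r = 0.947) and Ttll7 (0.937) for Edn1, and Arhgef5 (0.956) and Bicdl1 (0.954) for Nos2. Virma (0.963) was among the closest for Ptgis.

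**Figure D3:**
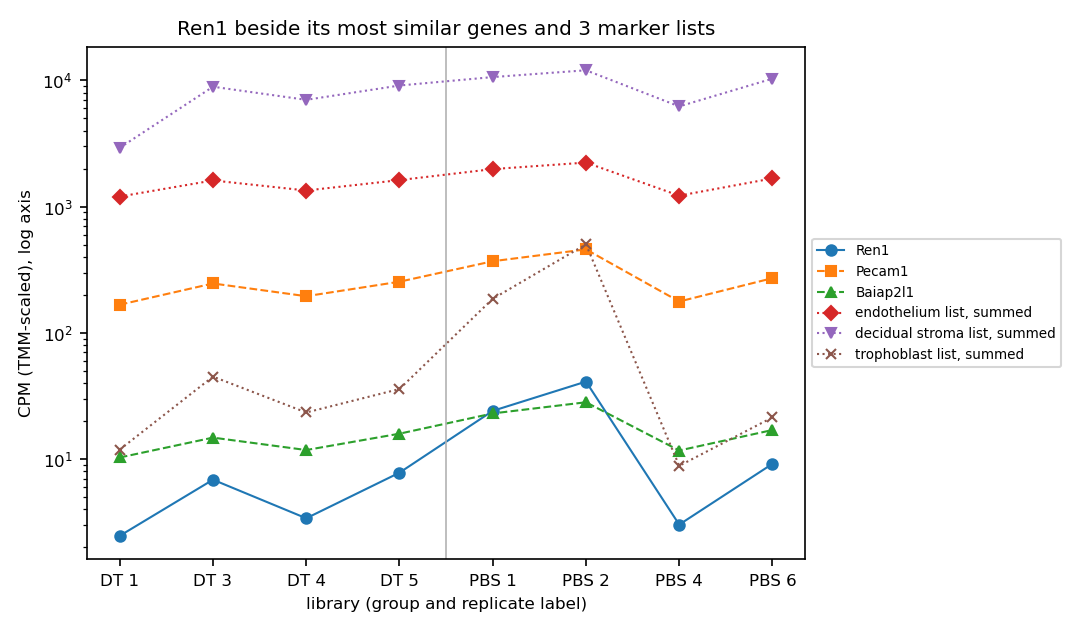
CPM on a log axis for Ren1, its 2 most similar genes and the summed endothelium, decidual stroma and trophoblast lists in each library, DT-labelled libraries left of the grey line and PBS-labelled libraries right of it. Lines join the points of one gene or list only to guide the eye. Ren1, Pecam1 and Baiap2l1 are all lowest in DT-labelled replicate 1 and highest in PBS-labelled replicate 2.

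Ace, the enzyme that forms angiotensin II, had the smallest unadjusted p of the 10 genes. It measured 32, 29.6, 29.6 and 28.3 CPM in libraries labelled DT and 38.4, 43.6, 31.5 and 35.5 CPM in libraries labelled PBS. The groups crossed only where DT-labelled replicate 1 exceeded PBS-labelled replicate 4. Ace averaged 29.9 ± 1.53 CPM in libraries labelled DT and 37.2 ± 5.09 CPM in libraries labelled PBS (± SD, n = 4 per group), a log2 fold change of -0.32 ± 0.10 SE (unadjusted p = 0.0124, adjusted p = 0.489, edgeR). Its adjusted p ranged from 0.128 to 1 over the 19 alternative settings. Without PBS-labelled replicates 1 and 2 the log2 fold change was -0.17.

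Agtr1a, the main vascular angiotensin II receptor in rodents, measured 12.3, 10.1, 12 and 8.76 CPM in libraries labelled DT and 5.43, 3.82, 10.9 and 10 CPM in libraries labelled PBS. The low values were again PBS-labelled replicates 1 and 2. The log2 fold change was 0.52 ± 0.32 SE (adjusted p = 0.577, edgeR), and 0.04 without those libraries. Of the 12 other angiotensin genes, 0 passed the test in either direction over all genes. Agtr1b, the second type 1 receptor gene, had 0.579 ± 0.333 CPM in libraries labelled DT and 0.225 ± 0.118 CPM in libraries labelled PBS (± SD, n = 4 per group; adjusted p = 0.546 in edgeR). Lnpep, an aminopeptidase that also degrades oxytocin, had 23 ± 4.69 CPM in libraries labelled DT and 40.7 ± 17.5 CPM in libraries labelled PBS (± SD, n = 4 per group; adjusted p = 0.562 in edgeR). PBS-labelled replicates 1 and 2 were the highest for Lnpep, at 55.3 and 53.5 CPM, and the lowest for Agtr1b, at 0.152 and 0.144 CPM. Without them the log2 fold change was -0.23 in place of -0.82 for Lnpep and 0.94 in place of 1.36 for Agtr1b, and 0.53 for Agtr1b without DT-labelled replicate 1 as well.

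Neither nitric oxide synthase passed the test between the groups. Nos3, the endothelial enzyme, measured 26.9, 32.1, 27.7 and 31.3 CPM in libraries labelled DT and 35.8, 36.5, 28.6 and 29.8 CPM in libraries labelled PBS. It was the steadiest of the 10 genes, with a whole range of 1.36-fold, and its log2 fold change was -0.15 ± 0.10 SE (adjusted p = 0.598, edgeR). It was 0.012 without PBS-labelled replicates 1 and 2. For Nos3, 32.3% of exon bases overlap those of Atg9b and Gm15587 on the opposite strand, and the strand setting of the counting is unknown here, so reads of these genes may be included.

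Nos2, the inducible synthase that interferon-gamma is known to raise in macrophages, was the least abundant of the 10 per kilobase of exon. It measured 4.83, 3.75, 3.19 and 2.75 CPM in libraries labelled DT and 3.95, 5.04, 3.15 and 2.22 CPM in libraries labelled PBS. The means were 3.63 ± 0.9 CPM in libraries labelled DT and 3.59 ± 1.2 CPM in libraries labelled PBS (± SD, n = 4 per group), a log2 fold change of 0.02 ± 0.27 SE (adjusted p = 0.982, edgeR) with a 95% confidence interval of -0.61 to 0.64. Without PBS-labelled replicates 1 and 2 the log2 fold change of Nos2 was 0.44, and with the conceptus score it was 0.29 (adjusted p = 1 in both edgeR fits), while leaving out 1 library gave -0.16 to 0.23. In the same libraries 16 of 16 interferon-gamma response genes had a positive log2 fold change, beside 11668 of all 22693 genes, and 11 were called higher, beside 0.322% of all genes. The list had summed levels of 512 to 1220 CPM in libraries labelled DT and 266 to 353 CPM in libraries labelled PBS. DT-labelled replicate 1, the lowest of its group for that list, had the highest Nos2 of its group. That is 1 library, which also stood apart for the decidual stroma genes. The part of interferon-gamma in the Nos2 values was not tested. The ratio of Nos2 to Nos3 was 0.168, 0.11, 0.108 and 0.0822 in libraries labelled DT and 0.103, 0.129, 0.103 and 0.0699 in libraries labelled PBS (two-sided exact permutation p = 0.486; adjusted p = 0.729, n = 4 each).

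Of 18 other genes of nitric oxide synthesis and signalling, 0 passed the test over all genes, and 1 was higher and 2 were lower where the unadjusted p is below 0.05, beside 4.72% and 3.98% of all genes. Gucy1a1, a subunit of the soluble guanylate cyclase that senses nitric oxide, had 47.4 ± 2.37 CPM in libraries labelled DT and 70 ± 18.1 CPM in libraries labelled PBS (± SD, n = 4 per group), a log2 fold change of -0.56 ± 0.17 SE (adjusted p = 0.463, edgeR). Ddah2, which breaks down an endogenous synthase inhibitor, had 19 ± 2 CPM in libraries labelled DT and 15 ± 1.89 CPM in libraries labelled PBS (± SD, n = 4 per group; adjusted p = 0.509 in edgeR). PBS-labelled replicates 1 and 2 had the highest Gucy1a1, at 92.4 and 74.6 CPM, and the lowest Ddah2, at 14 and 13.1 CPM. Without them the log2 fold change of Gucy1a1 was -0.26 and that of Ddah2 0.21, against 0.34 with them.

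In the prostanoid pathway Ptgs1 and Ptgis did not pass the test. Thromboxane synthase was called higher in the main edgeR fit, a call kept in 6 of the 19 alternatives. Ptgs1, cyclooxygenase-1, measured 25.7, 34.2, 27.7 and 36.8 CPM in libraries labelled DT and 40.7, 42.7, 26.9 and 38.1 CPM in libraries labelled PBS. The groups overlapped across most of their range, with a log2 fold change of -0.25 ± 0.17 SE (adjusted p = 0.586, edgeR). It was -0.068 without PBS-labelled replicates 1 and 2, and leaving out 1 library gave -0.38 to -0.17. The ratio of Ptgs1 to Ptgs2, the inducible cyclooxygenase, was 0.673 to 0.842 in libraries labelled DT and 0.678 to 0.904 in libraries labelled PBS, a log2 difference of -0.02 (two-sided exact permutation p = 0.857; adjusted p = 0.857, n = 4 each). Ptgis, prostacyclin synthase, measured 29.7, 21.1, 19.5 and 19.1 CPM in libraries labelled DT and 26, 29.4, 24.7 and 23.8 CPM in libraries labelled PBS. DT-labelled replicate 1 was the highest of all 8 and the other libraries labelled DT were the lowest 3. The log2 fold change of Ptgis was -0.22 ± 0.15 (SE; adjusted p = 0.594 in edgeR), and without DT-labelled replicate 1 it was -0.38 (adjusted p = 0.231 in edgeR). It was -0.12 without PBS-labelled replicates 1 and 2.

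Tbxas1, thromboxane A synthase, measured 7.81, 5.57, 5.78 and 5.62 CPM in libraries labelled DT and 2.58, 2.87, 3.49 and 3.12 CPM in libraries labelled PBS. The groups did not overlap. Tbxas1 rose 2.06-fold, to 6.2 ± 1.08 CPM in libraries labelled DT, against 3.01 ± 0.384 CPM in libraries labelled PBS (± SD, n = 4 per group), a log2 fold change of 1.04 ± 0.15 SE (adjusted p = 0.0417, edgeR). It was the only one of 83 other pathway and vasoactive genes tested that passed with edgeR. The call was lost, with adjusted p of 0.0589 to 0.164, without any one library other than DT-labelled replicate 1, and the log2 fold change lay between 0.91 and 1.12 over the 8 fits that each left out 1 library. It was also lost with limma voom (adjusted p = 0.0514) and without PBS-labelled replicates 1 and 2 (log2 fold change 0.91, adjusted p = 0.497), while DESeq2 kept it (adjusted p = 6.86e-08). Tbxas1 (ENSMUSG00000029925) lies on the plus strand of chromosome 6 at 38875404 to 39084585, and other genes share 0.928% of its sequence in windows of 75 bases. The promoter shown above is that of the RefSeq start, inside this span.

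Macrophages and platelets are known sources of thromboxane synthase. Over 10 macrophage genes the summed level was 481, 466, 492 and 483 CPM in libraries labelled DT and 429, 414, 341 and 380 CPM in libraries labelled PBS, also without overlap. Of the 10, 2 were called higher, C1qa and C1qb, beside 0.322% of all genes. The log2 fold change was positive in 7 of the 10 and negative in 3. The 7 platelet genes summed to 11.4 to 14.8 CPM in libraries labelled DT and 11 to 14.7 CPM in libraries labelled PBS. In all libraries but DT-labelled replicate 1 the largest part of that sum was Gp1bb. Of the 5 platelet genes tested, the log2 fold change was positive in 3 and negative in 2. Tbxas1 was 1.62, 1.19, 1.18 and 1.16% of the summed macrophage level in libraries labelled DT and 0.601, 0.692, 1.02 and 0.82% in libraries labelled PBS, so the groups did not overlap on that scale either. The log2 difference was 0.73, and 0.48 without PBS-labelled replicates 1 and 2. That scale depends on the genes summed, of which Csf1r was the most abundant, at 94.8 to 195 CPM. Log2 fold changes within the list ran from -0.54 (Cd68) to 0.75 (C1qa), and Tbxas1 was not set against single macrophage genes. The percentage of the summed macrophage level was computed after the data were seen. The part of macrophage content in the rise of Tbxas1 was not tested further, and that of platelet content was not tested.

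The ratio of Ptgis to Tbxas1, prostacyclin synthase over thromboxane synthase, was 13.5, 13.4, 11.9 and 12 per kilobase in libraries labelled DT and 35.6, 36.3, 25.1 and 27 in libraries labelled PBS. Every library labelled DT was below every library labelled PBS. The log2 ratio averaged 3.67 ± 0.10 in libraries labelled DT and 4.93 ± 0.27 in libraries labelled PBS (± SD, n = 4 per group), a difference of -1.27 (two-sided exact permutation p = 0.0286; adjusted p = 0.0857 over 6 ratios). The difference was -1.36 to -1.19 when each library was left out in turn and -1.04 without PBS-labelled replicates 1 and 2. Most of this difference is that of Tbxas1, whose own log2 fold change was 1.04. Both groups had more Ptgis than Tbxas1 RNA per kilobase in whole tissue.

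Of the 23 other prostanoid genes, 22 were tested. With edgeR 1 was called higher and 0 lower, beside 0.322% and 0.00441% of all genes. Their log2 fold change was positive in 14 and negative in 8, with a median of 0.09, beside 0.01 over all genes. Of 7 other endothelin genes 6 were tested and 0 passed, with Edn3, an endothelin that prefers the ETB receptor, at 1.08 ± 0.309 CPM in libraries labelled DT and 1.45 ± 0.386 CPM in libraries labelled PBS (± SD, n = 4 per group; adjusted p = 0.577 in edgeR). Of 28 other vasoactive peptide and receptor genes 25 were tested and 0 passed, while 6 were higher and 2 lower where the unadjusted p is below 0.05, beside 4.72% and 3.98% of all genes. Nppa, which encodes atrial natriuretic peptide, measured 2.9, 2.33, 1.97 and 1.68 CPM in libraries labelled DT and 0.806, 0.949, 1.66 and 1.48 CPM in libraries labelled PBS, without overlap but narrowly at the edge (log2 fold change 0.86 ± 0.27, adjusted p = 0.505 in edgeR). For Nppa, 61.5% of exon bases overlap Gm13054 on the opposite strand, whose reads may be included, and without PBS-labelled replicates 1 and 2 its log2 fold change was 0.50. Kng2, a kininogen gene, had 41.1 ± 5.2 CPM in libraries labelled DT and 32.3 ± 3.24 CPM in libraries labelled PBS (± SD, n = 4 per group; adjusted p = 0.486 in edgeR), also without overlap between groups, and 10.8% of its 75-base windows occur in its paralog Kng1. Of the 25 genes tested, 3 (Nppa, Kng2 and Vip) lay wholly above the PBS-labelled range with the DT label and 0 wholly below. Over all genes these shares were 3.33% and 1.73%.

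**Figure D4:**
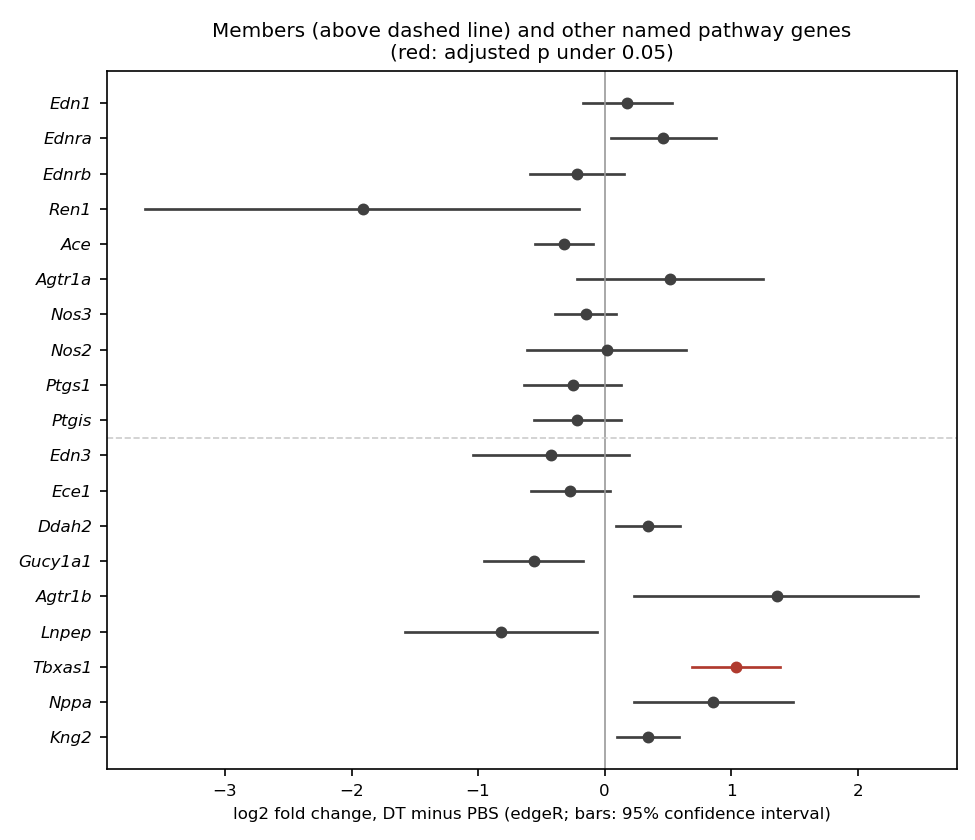
Log2 fold change, DT minus PBS, with its 95% confidence interval from edgeR for the 10 vasoactive genes (above the dashed line) and 9 other named pathway genes. Tbxas1, in red, is the gene past the adjusted threshold at 1.04, and Ren1 has the widest interval, from -3.63 to -0.20.

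Between genes, levels were compared as CPM per kilobase of exon over the 8 libraries. The neighbouring pairs tested were taken from the order of these same levels, so their p-values lend that order no independent support. Ednrb stood first with 37 ± 6.58 CPM per kilobase, above Ptgis with 9.41 ± 1.6 (SD, n = 8), and was higher in 8 of 8 libraries (two-sided exact paired permutation p = 0.00781; adjusted p = 0.0234 over 9 neighbouring pairs). Ptgis, Ptgs1, Ednra, Nos3, Ren1 and Ace followed between 9.41 and 6.35 CPM per kilobase. None of the 5 neighbouring pairs among them passed (adjusted p of 0.309 to 0.977, exact paired permutation tests). The level of Nos3 may include reads of the genes that overlap it. The place of Ren1 in this order rests on PBS-labelled replicates 1 and 2: it exceeded Ace in 2 of 8 libraries, and it averaged 3.1 ± 1.57 CPM per kilobase in libraries labelled DT, where Agtr1a averaged 3.87 ± 0.598, and 11.7 ± 10.2 in libraries labelled PBS (± SD, n = 4 per group). Ace exceeded Agtr1a, at 3.29 ± 1.09, in 8 of 8 libraries (adjusted p = 0.0234, exact paired permutation test). Agtr1a exceeded Edn1, at 1.53 ± 0.238, in 7 of 8 (adjusted p = 0.0352, exact paired permutation test), PBS-labelled replicate 2 being the exception. Edn1 exceeded Nos2, at 0.818 ± 0.223, in 8 of 8 (adjusted p = 0.0234, exact paired permutation test).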

How the data were processed

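RNA was sequenced from the whole uterus of 8 females, 4 in each group, 1 library per female. The values deposited are raw counts of reads for each Ensembl gene, not normalized by the authors. The submitters' processing notes name featureCounts, HISAT2, DESeq2, SAMtools, Trimmomatic and build GRCm38. The sources used here give no versions, annotation release or strand setting. The titles also carry an S number that differs between the groups throughout, so it and the treatment cannot be told apart. The series table and the library tables differed in 0 cells, and 49326 of 49585 genes matched GENCODE M21, which gave symbols, coordinates and exon lengths. The other 259 held 0.076% of counts.

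Testing used edgeR 4.0.16 under R 4.3.3: filterByExpr (minimum count 10, minimum total 15) left 22693 genes, scaled by TMM and tested with the robust quasi-likelihood test, treatment as the only term, two-sided. Genes with a Benjamini-Hochberg adjusted p under 0.05 were called. The script was tested on simulated data. DESeq2 1.42.0 and limma 3.58.1 (voom) were alternatives. Ratios used counts plus 0.5 per kilobase of exon and exact permutation tests in Python 3.11.15. Promoter sequences came from RefSeq (GRCm38.p6). No 2 libraries agreed within sampling noise (chi-square over degrees of freedom at least 20.17 in 28 pairs). P-values measure the spread between these libraries.

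The 10 genes, the wider lists, the ratios and the alternatives were chosen with earlier results of these data known. Named were the 10 genes, the partners in the ratios and, from each of 5 wider lists, the genes past the threshold or else the 2 with the smallest unadjusted p. For Edn1, Nos2, Ren1 and Ptgis the 2 most similar genes were added. Prxl2b was matched under its older symbol. Of the 6 ratios 5 are reported here, and some genes named by these rules are not.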

Additional observations from a re-analysis of the deposited data

Results flagged for a closer look

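In 50 groups of 4 libraries examined for a value far from the others, 2 held such a value, where chance alone gives one in about 1 in 20 groups. Tbxas1 in DT-labelled replicate 1, at 7.81 CPM, lay far above the next DT-labelled value of 5.78 CPM. Without that library Tbxas1 had a log2 fold change of 0.91 (adjusted p = 0.0296 in edgeR). Kng2 in DT-labelled replicate 4, at 48.8 CPM, lay above a next DT-labelled value of 39.4 CPM.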

How the results depend on the processing

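The count of the 10 vasoactive genes called was 0 in both directions under all 19 alternatives. Of 190 alternative log2 fold changes for them, 180 kept their direction and 10 changed sign, none of them past the threshold. These were Nos2 without DT-labelled replicate 1, PBS-labelled replicate 4 or PBS-labelled replicate 6 (-0.15, -0.04 and -0.16), Nos3 without PBS-labelled replicates 1 and 2 (0.012), without these and DT-labelled replicate 1 (0.057) and with the conceptus score (0.0028), Edn1, Agtr1a and Ptgs1 without those 3 libraries (-0.012, -0.023 and 0.019), and Ednrb with the replicate block (0.016). Among the other named genes, Edn3 changed sign with the replicate block (0.18) and Ptgs2 without the 3 libraries (0.12) and with the conceptus score (0.0088). Of the ratios, Ptgs1 to Ptgs2 changed sign with medians (0.0068), without DT-labelled replicate 5 or PBS-labelled replicate 6 (0.042 and 0.043) and with the replicate block (0.18). Nos2 to Nos3 changed sign without DT-labelled replicate 1 (-0.0003). The cause was not tested. Leaving out each library gave log2 fold changes of -0.16 to 0.23 for Nos2, and log2 differences of -0.0003 to 0.34 for Nos2 to Nos3 and -0.1 to 0.043 for Ptgs1 to Ptgs2.

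The count of wider pathway genes called higher was 1 as reported and 0 with library size only, limma voom, the replicate block, PBS-labelled replicates 1 and 2 left out (alone or with DT-labelled replicate 1) or the conceptus score, and 0 to 1 with each library left out. DESeq2 called 1 lower, Ptgds. Over all genes, 73 were called higher and 1 lower, against 270 and 71 with DESeq2, 48 higher with the conceptus score, 2 lower with library size only, 0 higher without PBS-labelled replicates 1 and 2, and 0 to 115 higher and 0 to 5 lower with each library left out. Under scaling by library size alone, the median gene had a log2 fold change of 0.12. The numbers 1 and 4 occur in both groups, but the deviations of the libraries that share a number correlated at -0.62 and 0.34, so the numbers were not taken as pairs. A fit with the replicate block on those 4 libraries called 0 genes in either direction, with a log2 fold change of 1.16 for Tbxas1. Depth limited Agtr1b most among the named genes, with 14 to 129 counts per library.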

Other observations

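Several genes of neighbouring vasoactive systems, named after their values were seen, followed the same libraries as Ren1. Corin, the protease that activates natriuretic peptides, measured 0.622, 15.2, 8.35 and 16.3 CPM in libraries labelled DT and 30.2, 45, 3.8 and 15.7 CPM in libraries labelled PBS. Adm, which encodes the vasodilator adrenomedullin, measured 14.4, 83.2, 48.6 and 78.2 CPM in libraries labelled DT and 108, 111, 22.6 and 60.6 CPM in libraries labelled PBS. Ramp3, part of an adrenomedullin receptor, ranged from 6.95 to 47 CPM in libraries labelled DT and from 16.5 to 84.9 CPM in libraries labelled PBS. All 3 were highest in PBS-labelled replicates 1 and 2, and none passed the test (adjusted p = 0.612 in edgeR for Corin, 0.763 for Adm and 0.604 for Ramp3). These 2 libraries were the highest for 19.9% of all genes tested and the lowest for 19.5%. Other genes of the same list were lowest in them, among them Oxtr (3.75 and 3.99 CPM), Kng1 (8.68 and 7.35 CPM) and Nppa.

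Agtr2, the second class of angiotensin receptor, was near constant in libraries labelled DT at 10.8 to 11.7 CPM and spread from 2.14 to 13.5 CPM in libraries labelled PBS, with the low values in PBS-labelled replicates 1 and 2 (adjusted p = 0.68 in edgeR). Gucy1b1, the partner subunit of Gucy1a1, measured 41.3 ± 11.6 CPM in libraries labelled DT and 66 ± 18.4 CPM in libraries labelled PBS (± SD, n = 4 per group; adjusted p = 0.558 in edgeR). Ptgds, a prostaglandin D synthase, measured 0.171 to 0.35 CPM in libraries labelled DT and 3.1, 2.91, 0.142 and 0.35 CPM in libraries labelled PBS. DESeq2 called it lower (log2 fold change -2.72, DESeq2 adjusted p = 0.0494) and edgeR did not (adjusted p = 0.54).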
